A study of Mus musculus with 115 samples.

Results

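The genes described here were the protein-coding genes that overlap chromosome 18 from 73432362 to 88633996 (GRCm38), an interval that the study mapped for prostate tumor burden and for which it put forward no gene. The table of expression values held 126 genes of this interval by the GENCODE M21 annotation. Of these, 68 are protein-coding, 1 ribosomal protein gene was left out by the rule, and 67 remained out of the 45699 genes of the table. The choice of genes rested on position and gene type and used no expression value.

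RNA was sequenced from prostate tissue of (TRAMP x WSB/EiJ) F2 males, and every library was labelled with the same cross, tissue and transgene status. By the paper, small prostates gave RNA from the ventral lobe. Organ weight stood for tumor burden there, with no check by pathology that tumor was present. The authors gave as their reason that, in their earlier work, organ weight and cancer were highly correlated. TRAMP mice carry the SV40 T antigen under the androgen-responsive probasin promoter, which acts in prostate epithelium, and WSB/EiJ is an inbred strain of wild origin, so that the mice carried the transgene in common and differed in the alleles they inherited. The libraries formed 1 group with no untreated or transgene-negative library, and the genotype, age and tumor burden of each mouse were not used here. Each value is in TPM, the share of a gene's transcripts in its library, from which the number of reads cannot be recovered. The paper states a minimum number of read pairs, and beyond it the depth of each library is unknown. Nothing in the labels says which mice were littermates, and p-values measure the spread between these libraries.

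The interval holds 3 SMAD genes, whose proteins act in the transforming growth factor beta (TGF-beta) pathway. In this pathway ligands activate receptor kinases, which phosphorylate receptor-regulated SMADs such as Smad2, and these join the common partner Smad4 to regulate transcription in the nucleus. Smad7 is an inhibitory SMAD that is itself induced by the pathway and dampens the receptors. The pathway restrains the division of normal epithelium, the prostate included. Other genes of the interval serve mitosis, mitochondria, membrane traffic, chromatin and nerve cells. The genes were set against 3 markers. Mki67 is a nuclear protein of dividing cells, Chga encodes a granin of neuroendocrine secretory granules, and Tgm4 encodes a transglutaminase secreted by the prostate.

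Of the 67 genes, 38 (56.7%) reached 1 TPM in 50% of libraries or more. This share was 55.3% over the 20381 autosomal protein-coding genes of the table and 52.1% over the 432 other protein-coding genes of chromosome 18, so the interval was close to both backgrounds. In 32 genes every library was at 1 TPM or more, 4 genes reached 1 TPM in no library, and 22 genes were listed at 0 in some library. Together the 67 genes took between 309 and 1799 TPM of a library, with a median of 683.

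The highest level was that of Atp5a1, the alpha subunit of mitochondrial ATP synthase, at 59.5, 176 and 611 TPM (lowest, median and highest of all libraries). Cyb5a, cytochrome b5, an electron carrier of the endoplasmic reticulum, followed at 1.53, 116 and 221 TPM. Some libraries of Cyb5a were thus far under its median, while those of Atp5a1 stayed nearer to theirs. BC031181 was at 15.8, 47.4 and 80.8 TPM, and Gm16286 was at 13.3, 31.1 and 54.1 TPM. Acaa2, the mitochondrial thiolase of fatty acid oxidation, was at 2.16, 28.3 and 467 TPM and had the largest ratio of highest to lowest value among these genes. Ier3ip1, a small protein of the endoplasmic reticulum, was close to Acaa2 in its median, at 14.97, 27.95 and 49.3 TPM. TPM is scaled by transcript length, so these levels can be set side by side, and the medians of Gm16286, Acaa2 and Ier3ip1 lay closer together than the range of any of the 3.

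**Figure D1:**
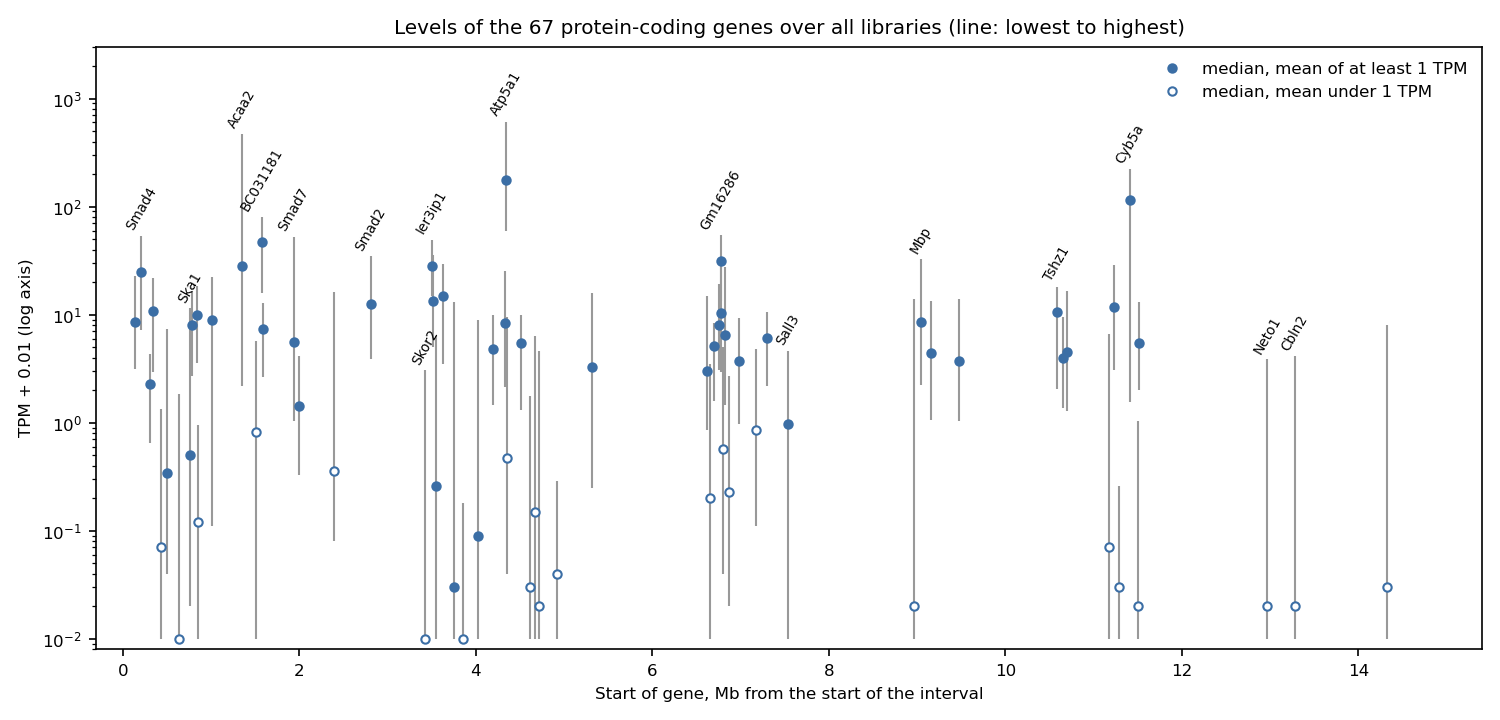
Lowest to highest TPM (grey line) and median (circle) over all libraries for each of the 67 genes, against the distance of its start from the start of the interval in Mb, with 0.01 added to each TPM on a log axis; filled circles are genes whose mean reached 1 TPM and open circles genes below it. Atp5a1 and Cyb5a had the highest medians, 176 and 116 TPM, and among the genes with the largest distance Neto1 and Cbln2 had medians of 0.01 TPM.

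A mean of 1 TPM or more over all libraries was required for a test, which kept 44 of the 67 genes and 14623 genes in all. The other 23 had means under 1 TPM and are described by level only. Nerve cell genes were among the lowest of them. Galr1, a galanin receptor, was at 0, 0.01 and 14.01 TPM (lowest, median and highest). Neto1, an auxiliary subunit of kainate receptors, reached at most 3.84 TPM and Cbln2, a secreted synaptic organiser, at most 4.09 TPM, each with a median of 0.01. Skor2, a corepressor of the SKI family, was at 1 TPM or more in 11 libraries and listed at 0 in 79. Genes that reached 1 TPM in no library were Cfap53, a protein of cilia and flagella, Loxhd1, a protein of sensory hair cells, Gm6133 and Fam69c, with highest values of 0.940, 0.170, 0.280 and 0.250 TPM. The urea transporters Slc14a1 and Slc14a2 and the serum dipeptidase Cndp1 had medians of 0.140, 0.01 and 0.06 TPM, with highest values of 6.34, 4.63 and 6.54 TPM. Zbtb7c, a zinc finger protein, had a median of 0.35 TPM and a highest value of 16.2 TPM, the highest value of the 23. Nfatc1, the calcium-regulated transcription factor, came closest to the limit with a median of 0.84 TPM and a highest value of 4.79 TPM, and Lipg, endothelial lipase, was next with a median of 0.81 TPM and a highest value of 5.72 TPM.

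Some genes share exons, and the reads of such genes cannot be fully told apart. Exons of another gene overlapped those of 13 genes, most by a small share. Gm9925 had 53.4% of its exonic bases on the opposite strand of Mapk4. Gm16286 shared 14.9% of its exonic bases with Txnl4a on the same strand. Haus1 and Atp5a1, on opposite strands, shared 129 bases, which is 1.80% of the exonic bases of Haus1. Of the 67, only Gm5096 had a nearly identical transcript of another gene of the table elsewhere in the genome, that of Bhmt on chromosome 13.

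The libraries did not form a single cloud. The first principal component of all tested genes separated them into 79 and 36, and no library changed its place when the genes of the interval were left out. Mki67 was at 0.390, 4.23 and 25.7 TPM (lowest, median and highest) in the larger part and at 20, 83.5 and 144 TPM in the smaller part. Chga was at 0.0600, 0.300 and 4.84 TPM in the larger part and at 0.150, 57.2 and 479 TPM in the smaller part, and Tgm4 was at 0.640, 7050 and 16890 TPM and at 0.770, 1.83 and 2469 TPM. The prostate luminal markers summed to between 271 and 18050 TPM in the larger part and to between 10.98 and 2718 TPM in the smaller part. The parts come from expression itself and are not groups of the study, so levels were not tested between them and every relation below was computed within a part.

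Within the parts the genes of the interval ranged widely. Ska1, a subunit of the complex that couples kinetochores to spindle microtubules, was at 0.01, 0.270 and 1.55 TPM in the 79 libraries and at 3.22, 7.20 and 11.4 TPM in the 36. The ranges of Ska1 in the parts did not overlap. Nor did those of the summed proliferation markers, at most 162.3 TPM in the 79 and at least 250.2 TPM in the 36. How many of all tested genes had no overlap was not counted, and the parts were themselves drawn from expression. Cyb5a was at 54.3, 133 and 221 TPM in the 79 and at 1.53, 10.8 and 129 TPM in the 36, and Myo5b, the myosin motor of recycling endosomes, was at 3.26, 9.68 and 16.1 TPM and at 0.1, 0.870 and 22.3 TPM. For both the ranges overlapped. St8sia5, a sialyltransferase of ganglioside synthesis in nerve cells, reached at most 0.230 TPM in the 79 libraries and was at 0, 3.89 and 13.2 TPM in the 36. Smad4 had similar levels in both, with medians of 25.7 and 22.1 TPM and ranges of 7.15 to 53.7 TPM and 11.01 to 33.5 TPM. In bulk tissue, fewer cells of a type and less RNA per cell cannot be told apart.

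**Figure D2:**
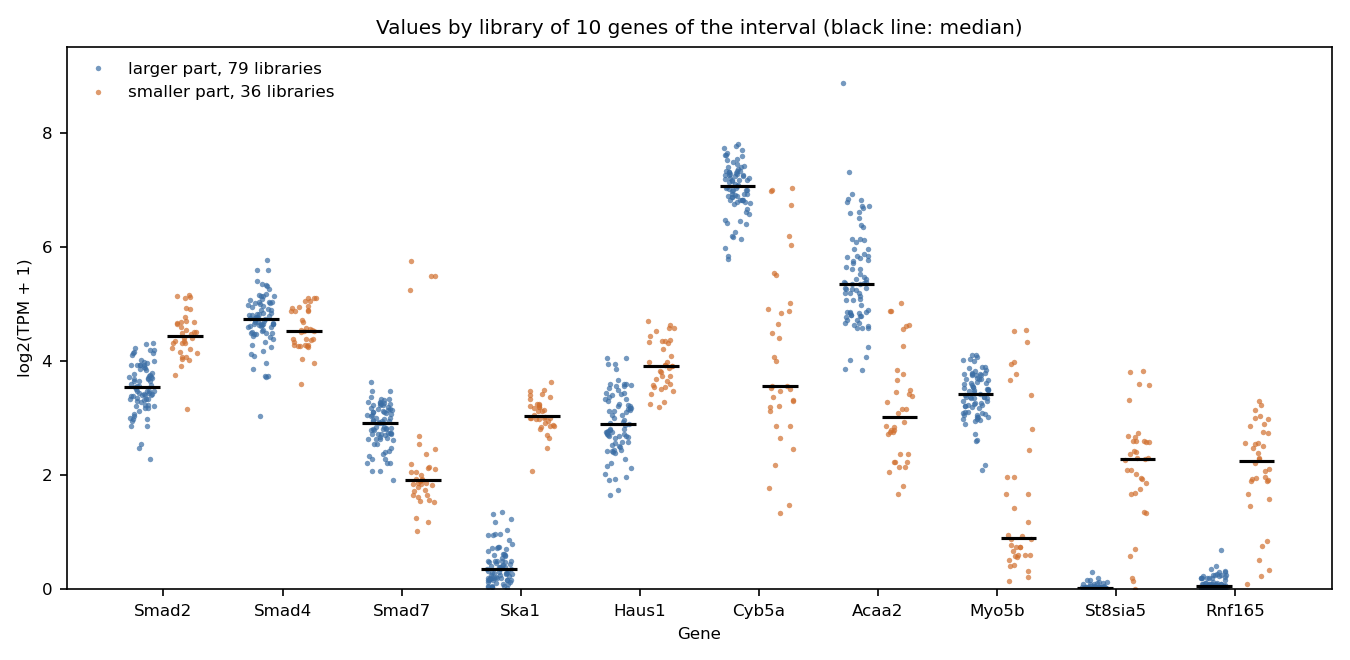
Log2(TPM + 1) of 10 genes of the interval in each library of the larger part (blue, 79 libraries) and the smaller part (orange, 36 libraries), with black lines at the medians and points spread sideways at random. Ska1 has no overlap between the parts, which were themselves drawn from expression. Smad4 overlaps throughout, and 4 orange points of Smad7 lie above all other points of that gene.

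The question of the first comparison was which genes of the interval followed Mki67 in the 79 libraries of the larger part. In these libraries 35 of the 44 genes were called higher with Mki67 and 0 lower (limma on log2(TPM + 1), adjusted p under 0.05 over all genes). These 79.5% stood beside 72.9% of all genes called higher and 1.44% lower. At an unadjusted p under 0.05, the count was 36 of the 44, beside 75.8% of all genes. The median slope of all genes was 0.18 log2 per log2 of Mki67 on the deposited scale, and it fell to -0.0063 with median-of-ratios scaling and to 0.038 with TPM rescaled without the 20 genes of the largest share. Those 20 genes took between 48.9% and 81.8% of the TPM of a library. With median-of-ratios scaling, 7 of the 44 genes were called higher and 6 lower, beside 22% and 20% of all genes. With rescaled TPM 16 were higher and 3 lower, beside 33.4% and 8.2%. A gene called in the same direction under all 3 scalings was therefore the measure used for single genes. By it 7 genes were higher with Mki67 and 0 lower, beside 22% and 1.41% of all genes.

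These 7 genes were Ska1, Haus1, Smad2, Pard6g, Mex3c, Sall3 and Ctdp1. Ska1 and Haus1 act in mitosis. Ska1 had the largest coefficient (r = 0.886, rho = 0.930, permutation p = 1e-05 for each, the smallest that 100000 permutations can give, n = 79) and r = 0.872 after the 2 libraries with the most extreme Mki67 were left out. Its slope was 0.28 ± 0.02 (SE) with an adjusted p of 3.67e-25 by limma, and r was 0.852 and 0.889 under the other scalings. As Ska1 lies mostly under 1 TPM here, the pseudocount of 1 understates its slope. Haus1, a subunit of the augmin complex that nucleates microtubules within the spindle, was at 2.14, 6.45 and 15.6 TPM (lowest, median and highest of 79). Its r was 0.871 and its rho 0.856 (permutation p = 1e-05 each), with a slope of 0.46 ± 0.03 (SE) and an adjusted p of 7.33e-24 by limma. Haus1 rose more steeply than the median gene by 0.29 log2 per log2 of Mki67, the widest margin of the 7.

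The other 5 genes differ in role. Smad2, the receptor-regulated SMAD, was at 3.83, 10.7 and 18.8 TPM and had r = 0.758 (rho = 0.746, permutation p = 1e-05 each), a slope of 0.31 ± 0.03 (SE) and an adjusted p of 1.09e-14 by limma. Under the other scalings r was 0.539 and 0.663. Pard6g, a PAR6 protein of epithelial polarity, was at 0.850, 2.40 and 5.15 TPM and had r = 0.749 (rho = 0.754, permutation p = 1e-05 each) with an adjusted p of 4.52e-14 by limma. Mex3c, an RNA-binding ubiquitin ligase, was at 3.14, 7.32 and 16.1 TPM and had r = 0.720 (rho = 0.740, permutation p = 1e-05 each) with an adjusted p of 8.49e-13 by limma. Sall3, a zinc finger transcription factor at 0, 1.14 and 4.62 TPM, and Ctdp1, a phosphatase of the tail of RNA polymerase II, had r = 0.677 and 0.647 on the deposited scale and 0.401 and 0.278 with median-of-ratios scaling, so Ctdp1 lost more of its coefficient than the mitotic genes did. With the first 3 principal components of these libraries as covariates, Ska1 kept an adjusted p of 2.31e-08 by limma, while Haus1, Smad2, Pard6g, Mex3c, Sall3 and Ctdp1 were at 0.203, 0.487, 0.0979, 0.918, 0.276 and 0.859.

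**Figure D3:**
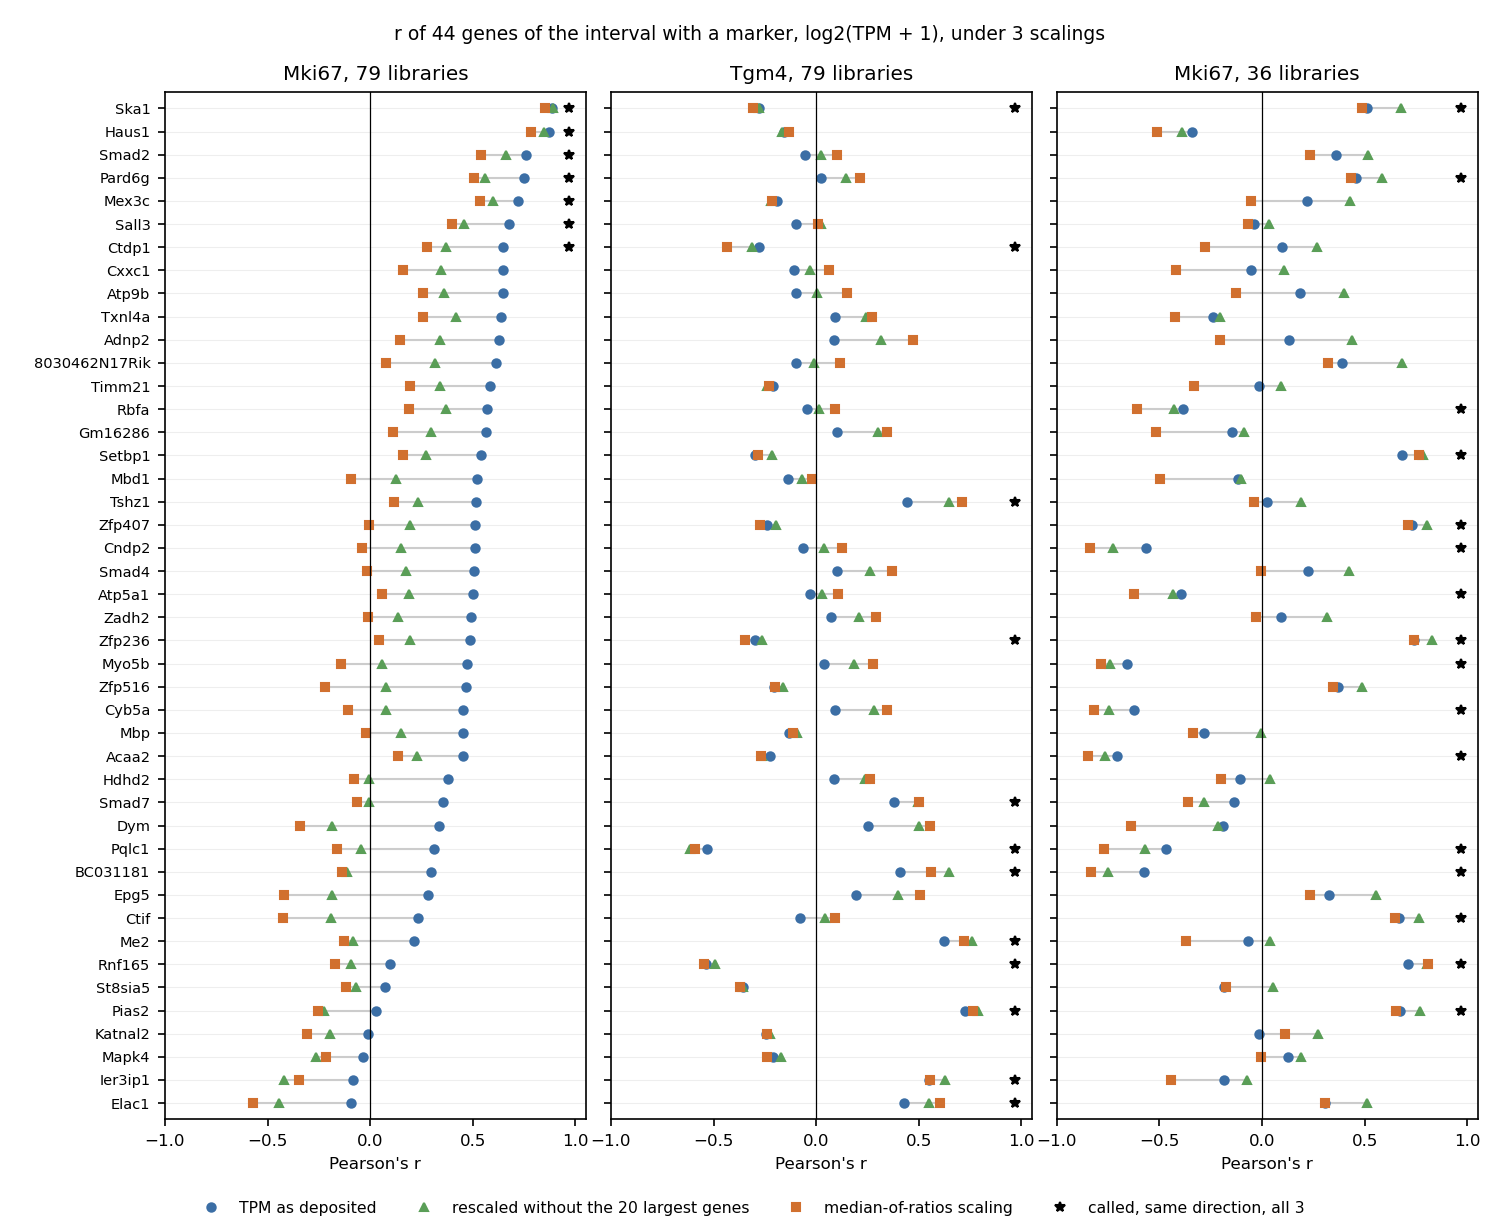
Pearson's r of 44 genes of the interval with Mki67 in the 79 libraries (left), with Tgm4 in the same libraries (middle) and with Mki67 in the 36 libraries (right), on log2(TPM + 1) under 3 scalings, with a star for genes called in the same direction under all 3. Circles of the left panel lie mostly to the right of 0 while the squares straddle it, and 7, 12 and 16 genes bear a star.

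By role, every list held some of the 35 genes called on the deposited scale. BC031181, Gm16286 and 8030462N17Rik, also among the 35, were in no list. Of the genes of transcription and chromatin 9 of 10 were called, of the mitochondrial and metabolic genes 7 of 8, and of the genes of membrane traffic and polarity 6 of 7. Of a list of Smad2, Smad4, Smad7 and Zadh2, the last of which is no SMAD gene, 4 of 4 were called. Of the cell division list it was 3 of 6, with Mapk4 and Elac1 among the 6 and Elac1 also in the list that follows. For RNA processing, translation and ubiquitin it was 2 of 5, and for the nervous system 1 of 2. These counts stood beside 72.9% of all genes. Under all 3 scalings the counts were, in the same order, 1, 0, 1, 1, 3, 1 and 0, beside 22% of all genes. The 3 of the cell division list were Ska1, Haus1 and Ctdp1, called both ways. Cxxc1, the CpG-binding subunit of histone methyltransferase complexes, was at 2.69, 8.02 and 16.5 TPM over all libraries and had r = 0.646 with Mki67 on the deposited scale and 0.16 with median-of-ratios scaling. Atp9b, a P4-type ATPase, and Txnl4a, a spliceosome component, had r = 0.645 and 0.638 and fell to 0.26 each. Adnp2, a homeobox zinc finger protein, Timm21, a subunit of the inner mitochondrial import machinery, and Rbfa had r = 0.625, 0.582 and 0.571 and fell to 0.14, 0.19 and 0.19. None of these 6 passed the threshold under all 3 scalings. Mapk4, an atypical MAP kinase, and Katnal2, related to the microtubule-severing protein katanin, had r = -0.034 and -0.012, and both were at or under 1.08 TPM in the 79 libraries.

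Several genes lost or turned their relation with the scaling, and 15 of the 35 had a negative r with median-of-ratios scaling. Smad4 had r = 0.504 with Mki67 on the deposited scale, 0.174 with rescaled TPM and -0.018 with median-of-ratios scaling. Smad7 had r = 0.356, -0.0040 and -0.064 in the same order. Neither was called under the other scalings, where these values were close to 0. Dym, a Golgi protein, Epg5, which acts in autophagy, and Ctif, a translation factor of cap-binding complexes, were higher with Mki67 on the deposited scale (r = 0.335, 0.282 and 0.234, with Ctif at an adjusted p of 0.0524 and not called) and called lower with median-of-ratios scaling (r = -0.343, -0.421 and -0.427). Markers of other cells moved with Mki67 as well. Under all 3 scalings, 5 of 5 proliferation markers and both tested leukocyte markers, Ptprc and Cd68, were called higher, and the summed level of the 4 leukocyte markers ran from 1.48 to 67.4 TPM in these libraries, with the T cell marker Cd3e and the B cell marker Cd79a under the mean of 1 TPM. Their part in these relations was not tested.

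The second comparison set the same 79 libraries against Tgm4. It called 7 genes higher and 6 lower, beside 12.2% and 26.7% of all genes. Under all 3 scalings 7 were higher and 5 lower, beside 12.2% and 23.6%. Mki67 and Tgm4 themselves were weakly related in these libraries (r = -0.195, permutation p = 0.0827; rho = -0.287, permutation p = 0.0105).

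Pias2, a SUMO ligase first known as an inhibitor of activated STATs and a coregulator of the androgen receptor, headed the genes that were higher with Tgm4. It was at 3.49, 13.7 and 29.5 TPM (lowest, median and highest) and had r = 0.725 and rho = 0.850 (permutation p = 1e-05 each), with a slope of 0.13 ± 0.014 (SE) and an adjusted p of 3.86e-12 by limma. Me2, the mitochondrial malic enzyme, was at 2.90, 9.65 and 17.4 TPM and had r = 0.624 and rho = 0.818 (permutation p = 1e-05 each), with an adjusted p of 3.32e-08 by limma. Both coefficients were larger under the other scalings, at 0.765 and 0.787 for Pias2 and at 0.718 and 0.758 for Me2. Ier3ip1 had r = 0.551 and rho = 0.691 (permutation p = 1e-05 each), with an adjusted p of 4.11e-06 by limma. Tshz1, a zinc finger transcription factor, Elac1, which trims transfer RNA ends, and BC031181 had r = 0.441, 0.431 and 0.407, with adjusted p of 0.00035, 0.000726 and 0.00122 by limma. Smad7 completed the 7 with r = 0.377 (permutation p = 0.0006), rho = 0.409 (permutation p = 0.00021) and an adjusted p of 0.00335 by limma, while Smad2 (r = -0.053) and Smad4 (r = 0.1004) were not called, with adjusted p of 0.742 and 0.502.

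The genes lower with Tgm4 under all 3 scalings were Rnf165, Pqlc1, Zfp236, Ctdp1 and Ska1. Rnf165, a RING ubiquitin ligase of motor neurons, was at 0, 0.0400 and 0.610 TPM and had r = -0.535 and rho = -0.534 (permutation p = 1e-05 each), with an adjusted p of 3.57e-05 by limma. All its values were low, and its slope on the log2(TPM + 1) scale was correspondingly small at -0.022 ± 0.0044 (SE). Pqlc1, a PQ-loop membrane protein, was at 2.40, 7.10 and 27.7 TPM and had r = -0.531 and rho = -0.533 (permutation p = 1e-05 each), a slope of -0.096 ± 0.017 (SE) and an adjusted p of 7.51e-06 by limma. Zfp236, Ctdp1 and Ska1 were weaker, with r = -0.297, -0.280 and -0.280 and adjusted p of 0.0236, 0.0359 and 0.034 by limma. Setbp1, a nuclear protein that binds SET, was called on the deposited scale (r = -0.299, adjusted p of 0.0223 by limma) and not with rescaled TPM (adjusted p of 0.0979).

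Tgm4 was spread unevenly over the 79 libraries, with 55 of high and 24 of low level by the mixture of normal distributions, just under the limit for separate parts. Within the 55, 7 genes were called higher and 4 lower, beside 10.3% and 22% of all genes, and r was 0.754 for Pias2, 0.771 for Me2, 0.622 for Ier3ip1 and 0.566 for Smad7. Within the 24, limma called 0 of the 44 genes, with 1 at an unadjusted p under 0.05, while 74 and 10 of all genes were called higher and lower, and Pias2 had r = 0.398. Rnf165 and Ska1 had r = -0.163 and -0.112 within the 55 and were not called there (adjusted p of 0.459 and 0.564 by limma). With the 2 most extreme libraries of Tgm4 left out, 5 genes were called higher and 21 lower in place of 7 and 6, beside 7.2% and 55.6% of all genes, and r was then 0.65 for Pias2, 0.521 for Me2 and -0.608 for Pqlc1. Both tested leukocyte markers and 3 of 3 endothelial markers were called lower with Tgm4 under all 3 scalings, as were 3 of 6 stroma markers, while 1 stroma marker was higher and 0 of 7 seminal vesicle markers were called. The summed stroma markers ran from 156 to 5153 TPM and the summed endothelial markers from 1.43 to 63.2 TPM. Their part in these relations was not tested.

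**Figure D4:**
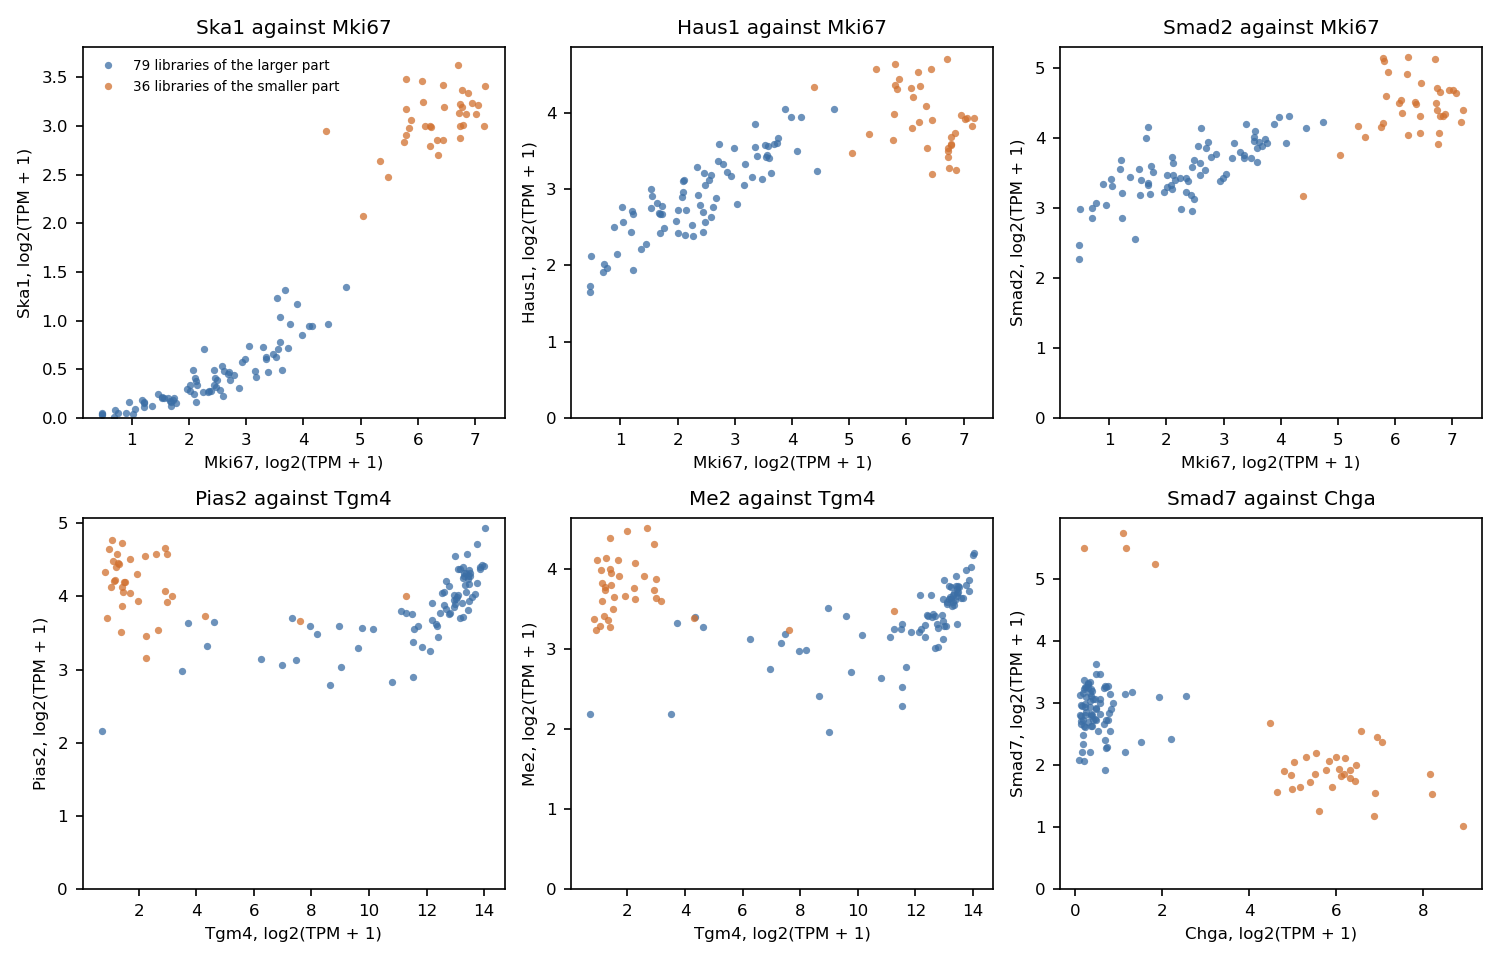
Log2(TPM + 1) of Ska1, Haus1 and Smad2 against Mki67, of Pias2 and Me2 against Tgm4, and of Smad7 against Chga, with 1 point per library (blue, larger part, 79; orange, smaller part, 36). Ska1, Haus1 and Smad2 rise with Mki67 among the blue points, Pias2 and Me2 rise where Tgm4 is high, and 4 orange points combine low Chga with the highest Smad7, between 36.7 and 52.5 TPM.

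Chga, the third marker, was low in the larger part and set 7 of its libraries apart, so that 72 libraries were compared. In these, 0 of the 44 genes were called in either direction by limma, beside 0.869% of all genes called higher and 0.0% lower, and at an unadjusted p under 0.05 the count was 2 of 44, beside 11.3% of all genes, namely Mbd1, a protein that binds methylated DNA, and Ctif. Under all 3 scalings the shares of all genes were 0.718% and 0.0%. Mbp, myelin basic protein, had r = 0.229, and St8sia5 had r = 0.180. With Chgb, another granin, in place of Chga, 18 of the 44 genes (40.9%) were called higher, beside 42.2% of all genes.

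In the 36 libraries of the smaller part, 3 of 5 tested proliferation markers (Top2a, Ccnb1 and Bub1) were called higher with Mki67 under all 3 scalings. Cdk1 and Birc5 were not. The median r of the 5 markers was 0.499, against 0.9495 in the 79 libraries. Within the 36, Mki67 was set against the same 44 genes. Of these, 9 were called higher and 8 lower, beside 23.3% and 21.6% of all genes, and under all 3 scalings 8 were higher and 8 lower, beside 21.9% and 19.3%. The counts moved with the scaling, to 8 higher and 17 lower with median-of-ratios scaling (23.6% and 38.2% of all genes) and to 17 higher and 9 lower with rescaled TPM (36.2% and 24% of all genes), while r kept its sign for each of the 17 genes called. With the 2 most extreme libraries left out, 8 were higher and 13 lower, beside 20.1% and 31.3% of all genes.

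Of 10 tested genes of transcription and chromatin, 4 were called higher with Mki67 under all 3 scalings and 0 lower, beside the 21.9% and 19.3% of all genes. Zfp236 and Zfp407, both zinc finger proteins, had r = 0.742 (rho = 0.691) and r = 0.732 (rho = 0.743), each with a permutation p of 1e-05, and adjusted p of 1.23e-05 and 9.66e-06 by limma. Rnf165, at 0.0700, 3.77 and 8.83 TPM (lowest, median and highest of 36), had r = 0.710 and rho = 0.798 (permutation p = 1e-05 each), with a slope of 1.00 ± 0.17 (SE) and an adjusted p of 1.39e-05 by limma. Setbp1, at 0.240, 6.67 and 15.7 TPM, had r = 0.681 and rho = 0.811 (permutation p = 2e-05 and 1e-05), with a slope of 1.13 ± 0.20 (SE). Both slopes were close to 1 on the deposited scale, with wide scatter. In the 32 libraries left without those of low Chga, described further on, r was 0.886 for Rnf165 and 0.862 for Setbp1, with slopes of 0.86 and 0.96. Pias2 (r = 0.674), Ctif (r = 0.670), Ska1 (r = 0.510) and Pard6g (r = 0.457) completed the 8. Ska1 and Pard6g were higher with Mki67 under all 3 scalings in both parts, but without the 3 libraries of high Tgm4 neither was called in the smaller part (adjusted p of 0.149 and 0.0556 by limma). Haus1 was not called in the 36 (r = -0.342, adjusted p of 0.0795 by limma), was called lower without those 3 (r = -0.527, adjusted p of 0.00682) and was called lower under both other scalings (r = -0.513 and -0.389). The difference between the parts was not tested.

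Of 8 tested mitochondrial and metabolic genes, 5 were called lower under all 3 scalings (Atp5a1, Acaa2, Rbfa, Cyb5a and Cndp2) and 0 higher, beside the same shares of all genes, and Me2, Timm21 and Hdhd2 were not called. Acaa2, at 2.16, 7.07 and 31.2 TPM, had r = -0.708 and rho = -0.775 (permutation p = 1e-05 each), with a slope of -1.06 ± 0.18 (SE) and an adjusted p of 1.35e-05 by limma. Cyb5a had r = -0.625 and rho = -0.706 (permutation p = 4e-05 and 1e-05), with a slope of -1.55 ± 0.32 (SE) and an adjusted p of 0.000224 by limma. Myo5b had r = -0.657 and rho = -0.581 (permutation p = 3e-05 and 0.00037), with a slope of -1.50 ± 0.28 (SE) and an adjusted p of 8.36e-05 by limma. Cndp2, a cytosolic dipeptidase, BC031181, Pqlc1, Atp5a1 and Rbfa, a factor of mitochondrial ribosome assembly, were the other 5, with r between -0.577 and -0.385. Of the prostate luminal markers, 5 of 6 were called lower with Mki67 under all 3 scalings in the same libraries, as were 4 of 6 stroma markers and Ptprc. The summed luminal markers ran from 10.98 to 2718 TPM and the summed stroma markers from 2.23 to 1427 TPM, and their part in these relations was not tested. Without the 3 libraries of high Tgm4, 7 genes were higher and 9 lower, beside 20.4% and 20.5% of all genes, and r was -0.684 for Acaa2, -0.590 for Cyb5a and -0.647 for Myo5b.

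Chga set 4 of the 36 libraries apart, at 0.150, 1.15, 1.23 and 2.55 TPM against 21.2 TPM or more in the other 32. Smad7 was at 36.7, 43.8, 44.1 and 52.5 TPM in these 4 libraries (values in order of size), between 1.02 and 5.41 TPM in the 32, and at most 11.4 TPM in the 79. Cyb5a was at 105.7, 125, 126 and 129 TPM in the 4 and between 1.53 and 72.2 TPM in the 32. Rnf165 was at 0.430 TPM or less and Setbp1 at 0.730 TPM or less in the 4. The epithelial keratin Krt8 was between 369 and 630.5 TPM in the 4, the prostate homeobox gene Hoxb13 was at 0.150 TPM or less, and Mki67 was between 54.7 and 74.1 TPM. Smad3, another receptor-regulated SMAD and no gene of the interval, was between 14.3 and 17.5 TPM in the 4 and at most 4.24 TPM in the 32. Smad9 went the other way, at 0.1 to 0.2 TPM in the 4 and 0.22 TPM or more in the 32. Smad1 and Smad5 lay within the range of the 32. Smad6 was between 2.74 and 7.43 TPM in the 4 and at most 2.78 TPM in the 32. The 4 libraries were more alike than any was to another library, with r over all tested genes of 0.917 to 0.955 among them and of at most 0.839 with any other. They differed in nearly all values, since at most 1.96% of tested genes had identical values in a pair. These 4 were singled out after their values were seen, and nothing was tested on them.

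Relations with Chga were therefore computed in the 32 libraries. In these, 4 genes were called higher and 0 lower, beside 9.11% and 0.198% of all genes, and under all 3 scalings 0 were called, beside 0.438% and 0.0753%. The 4 were St8sia5 (r = 0.620, permutation p = 0.00019, adjusted p of 0.00791 by limma), Mbp (r = 0.590, permutation p = 0.00036, adjusted p of 0.0137), BC031181 (r = 0.588, permutation p = 0.00041, adjusted p of 0.0138) and Atp5a1 (r = 0.493, permutation p = 0.00421, adjusted p of 0.0443). Their rho were 0.544, 0.597, 0.636 and 0.600. None was called with rescaled TPM, where r was 0.529 for St8sia5 (adjusted p of 0.0914), while St8sia5 was called with median-of-ratios scaling (adjusted p of 0.0414). At an unadjusted p under 0.05 the count was 19 of the 44, beside 26.4% of all genes. Smad7 was not called in the 32 (r = -0.270, permutation p = 0.135, adjusted p of 0.349 by limma). Over all 36 libraries 17 genes were called, beside 34.1% of all genes, so the count moved with the 4 libraries. Tgm4 set 3 libraries apart, and in the other 33 limma called 0 of the 44 genes, beside 0.0274% of all genes higher and 0.00685% lower, with 12 of the 44 at an unadjusted p under 0.05, beside 18.8% of all genes. Under all 3 scalings the shares of all genes were 0.0274% and 0.0%.

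The other genes of the TGF-beta pathway gave a setting for the SMAD genes. Of 25 such genes outside the interval, chosen by name, all 25 were tested. In the 79 libraries 17 (68%) were called higher with Mki67 and 0 lower, beside the 72.9% of all genes, and 5 (20%) held under all 3 scalings, beside 22%, namely Tgfb3, Smad1, Smad3, Tgif1 and Id1. Their median r was 0.463, and Smad2 with 0.758 lay between Tgif1, a corepressor of SMADs (r = 0.799), and Smad3 (r = 0.621) and Smad1 (r = 0.615). With Tgm4, 3 of the 25 were higher under all 3 scalings (Tgfbr3, Smad6 and Smad9) and 5 lower (among them the ligand Tgfb1 and the receptor Tgfbr2). These 12% and 20% were close to the 12.2% and 23.6% of all genes. Smad6, like Smad7 an inhibitory SMAD, was among the higher. In the 36 libraries 7 (28%) were higher and 4 (16%) lower with Mki67 under all 3 scalings, beside 21.9% and 19.3% of all genes. None of Smad2, Smad4 and Smad7 was called there (adjusted p of 0.061, 0.279 and 0.516 by limma). Without the 4 libraries of low Chga, Smad2 passed the threshold (r = 0.523, adjusted p of 0.00665 by limma).

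Neighbours on the chromosome were compared next. Over the 79 libraries the 946 pairs of the 44 genes had a median r of 0.534, against 0.434 for pairs of tested genes on the same autosome and 0.432 for pairs on different autosomes. With median-of-ratios scaling the medians were 0.039, 0.0050 and 0.0010, and after removal of the first 3 principal components they were 0.054, 0.017 and 0.012. The medians did not fall steadily with distance. They were 0.599 for the 59 pairs with starts under 0.25 Mb apart, 0.468 for the 110 pairs up to 1 Mb, 0.528 for the 439 pairs up to 5 Mb and 0.568 for the 338 pairs farther apart. After removal of the components these medians were 0.118, 0.016, 0.032 and 0.073. Smad4 and Elac1, whose starts lie 0.096 Mb apart, had r = 0.619 and kept 0.709 after removal of the components, while in the 36 libraries their r was -0.025. This pair was picked after its values were seen as the highest of the near pairs, which ranged from -0.581 to 0.709 after removal, and pairs over 5 Mb apart reached 0.712. These are descriptions over genes that share libraries and scaling, and no test was made.

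**Figure D5:**
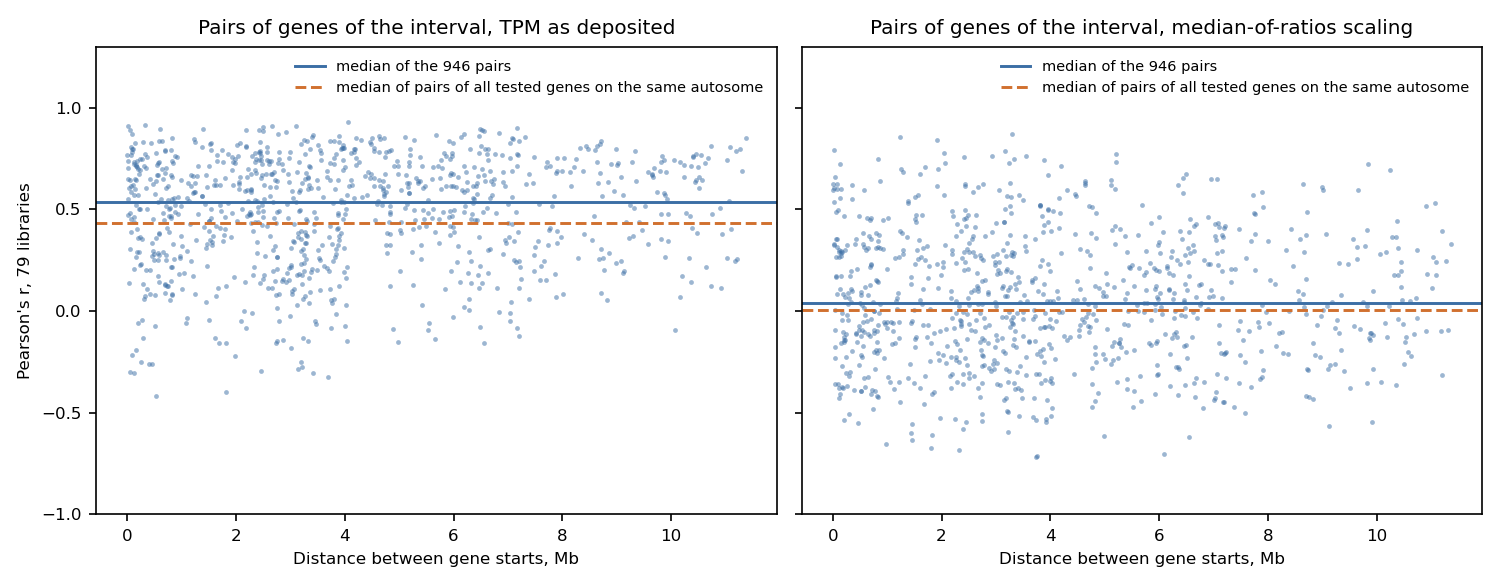
Pearson's r over 79 libraries for each of the 946 pairs of the 44 genes against the distance between their starts in Mb, on log2(TPM + 1) of the deposited TPM (left) and after median-of-ratios scaling (right). Solid lines mark the medians of these pairs, 0.534 and 0.039, and dashed lines those of all pairs on the same autosome, 0.434 and 0.0050.

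In an F2 cross, a gene with a strong local variant can fall into separate levels. The mixture rule set the expression of 2 of the 44 genes into separate parts within the 79 libraries, beside 9.03% of all tested genes. These were BC031181, with 9 low and 70 high libraries, and Gm16286, with 10 low and 69 high. Neither was called with rescaled TPM, which left 0 of the 44, or with median-of-ratios scaling, which called Pqlc1 and Tshz1 in their place. No gene of the interval was thus called under all 3 scalings. The genes varied about as much as others, with a median SD of 0.41 on the log2(TPM + 1) scale in the 79 libraries, against 0.44 over all tested genes.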

How the data were processed

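The authors deposited TPM per gene and library. After trimming, they aligned reads (Bowtie2 2.2.5) to transcripts of both parental genomes on GRCm38 and estimated abundance (RSEM 1.2.20). CASAVA 1.8.2 is also named in the submitters' processing notes. The authors' annotation is not given in the sources used here. Positions, names and exons follow GENCODE M21, which held 45136 of the 45699 genes. TPM keeps no depth, so no count model or interval was used, and the precision from counting is unknown.

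All 115 libraries formed 1 group. Relations were fitted with limma 3.58.1 (R 4.3.3, trended prior) on log2(TPM + 1), with the log2(TPM + 1) of a marker as the term and Benjamini-Hochberg adjustment over all genes whose mean reached 1 TPM, called at an adjusted p under 0.05. Both r (Pearson) and rho (Spearman) had two-sided tests by 100000 permutations, for 44 genes per marker and part, in 6 sets. A split was accepted where 2 normal components improved on 1 with a BIC lower by over 10, an Ashman D over 2 and 6 or more libraries on either side. Fewer libraries set apart in this way were left out. Every gene of the interval could be named by level. Full statistics were for the 5 with the largest r in each direction among those called with a marker in the larger part, the SMAD genes, genes that separate and the 5 highest medians, and genes of the smaller part were named after their values were seen. The genes, lists and markers were chosen with earlier results of these data known. BLAST+ 2.17.0 searched for copies of transcripts (identity of 95%, coverage of 80%). Alternatives were a pseudocount of 0.1, no filter, 2 other scalings, the 3 scalings together and removal of libraries set apart (both added after seeing the data), ranks, a joint fit, 3 principal components, other libraries and another marker. The scripts were tested on simulated data. Values were computed in Python 3.11.15 (scipy 1.17.1, numpy 2.4.6, pandas 2.3.3) and drawn with matplotlib 3.10.9.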

Additional observations from a re-analysis of the deposited data

How the results depend on the processing

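No paired analysis was possible because every library has the same label. For Mki67 in the 79 libraries, the 35 genes called became 13 with median-of-ratios scaling, 19 with rescaled TPM, 9 with 3 principal components as covariates, 17 in the smaller part and 7 under all 3 scalings together. Of all genes, 74.35% were called beside the 35, and 41.99%, 41.65%, 21.07% and 44.9% beside the 13, 19, 9 and 17. Beside the 7, 22% were called higher and 1.41% lower. For Tgm4 the 13 genes became 26 with median-of-ratios scaling, 20 with rescaled TPM, 22 with no filter, 26 without the 2 farthest libraries, 0 in the smaller part and 0 in the 24 libraries of low Tgm4. Beside the 13, 38.97% of all genes were called. Beside the alternatives it was, in the same order, 57.62%, 50.04%, 29.85%, 62.76%, 2.745% and 0.5751%. For Chga the 0 genes became 1 with no filter, 2 with median-of-ratios scaling, 1 in the joint fit, 17 in the smaller part and 18 with Chgb. Beside the 0, 0.8688% of all genes were called. Beside the alternatives it was, in the same order, 0.76%, 5.911%, 4.516%, 34.12% and 42.43%. In the smaller part the 17 genes of Mki67 became 26 with rescaled TPM, beside 44.9% and 60.16% of all genes. The 4 genes of Chga became 17 over all its libraries, 1 with median-of-ratios scaling, 0 with rescaled TPM, 9 without the 2 farthest libraries and 0 under all 3 scalings. Beside the 4, 9.309% of all genes were called. Beside the 17, 1, 0 and 9 it was 34.12%, 2.088%, 0.5339% and 12.72%. Under all 3 scalings it was 0.438% higher and 0.0753% lower. The median r of pairs became 0.210 with rescaled TPM, 0.039 with median-of-ratios scaling and 0.054 after 3 principal components. The 2 genes that separate became 0 with rescaled TPM. The other 46 alternative counts and medians stayed within 1.5 times or 1 SD. The causes were not tested, beyond the alternatives' own construction of fewer libraries or another scale.

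Of the 35 genes called with Mki67, r had the other sign for 15 with median-of-ratios scaling, for 6 with rescaled TPM and for 19 in the smaller part. Among the genes with full statistics for a marker, the sign with Mki67 reversed with median-of-ratios scaling for BC031181 (r = -0.138), Cyb5a (-0.110), Smad4 (-0.018) and Smad7 (-0.064), and with rescaled TPM for BC031181 (-0.112) and Smad7 (-0.0040). It reversed in the smaller part for Acaa2 (-0.708), Atp5a1 (-0.393), BC031181 (-0.577), Cyb5a (-0.625), Gm16286 (-0.145), Haus1 (-0.342) and Smad7 (-0.134). With 3 principal components the slopes with Mki67 were -0.14 for Acaa2, -0.15 for Atp5a1, -0.16 for BC031181, -0.20 for Cyb5a, -0.19 for Gm16286, -0.0079 for Mex3c and -0.12 for Smad4. With Chga, none of Cyb5a, Gm16286 and Smad7 was called in the 72 libraries (r = 0.094, 0.076 and 0.032). Over all 36 libraries, with the 4 of low Chga among them, r had the other sign (-0.458, -0.5003 and -0.854). In the 32 libraries without those 4, r was 0.251, 0.388 and -0.270, and none was called. With Tgm4 the sign reversed in the smaller part for Me2 (-0.192), Pias2 (-0.260), Pqlc1 (0.136) and Tshz1 (-0.112), and in the 24 libraries of low Tgm4 for Setbp1 (0.234) and Zfp236 (0.021). With 3 principal components the slopes with Tgm4 were -0.055 for BC031181, -0.037 for Cyb5a, -0.037 for Gm16286, -0.030 for Ier3ip1, -0.025 for Me2 and 0.083 for Setbp1. The depth of each library, known only by the minimum that the paper states, limits all values near 0 TPM.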
